A study of Homo sapiens with 6 samples.

Results

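The genes described here are 9 direct transcriptional targets of the tumor suppressor p53: CDKN1A, MDM2, MDM4, GDF15, TP53I3, SESN1, ZMAT3, FAS, and BTG2. They were picked by gene symbol. SESN1, a stress-induced inhibitor of mTORC1 signaling, was not analyzed here, so 8 of the 9 were followed among 12308 different rows of the RNA-seq table. All 8 passed the filter on low values (3 or more of the 6 libraries at a value of 1 or above), as did 11766 genes in all.

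RNA-seq was done on total RNA of 3 OVCAR5 and 3 OVCAR5R cultures. OVCAR5 is a line of ovarian cancer cells without BRCA mutation, and the study describes it as p53 null. OVCAR5R is the one resistant line that was derived from it, by culture in rising doses of the CHK1 inhibitor prexasertib (Prex) to a final 3 µM during 3 to 4 months. OVCAR5R was kept at 2 µM Prex and was off the drug for at least 4 days when used, and OVCAR5 is the untreated parent. Nothing in the labels says how the replicate cultures were separated, so the p-values below measure only the spread between these libraries.

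p53 is a transcription factor that is held at low levels by the ubiquitin ligase MDM2 and its partner MDM4. After DNA damage or replication stress, kinases such as ATM, ATR, and CHK2 free p53 from MDM2. p53 then binds response elements in its targets and raises genes of cell cycle arrest, cell death, DNA repair, and metabolism, together with MDM2, which closes a feedback loop. In cells without functional p53, many of these genes are still transcribed at a basal level under other factors, and high-grade serous ovarian cancer nearly always lacks normal p53.

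Summed over the genes in the table only, the libraries held between 35800000 and 55100000 estimated reads. A value of 1 corresponded to between 34.5 and 55.3 estimated reads. The lowest member value rested on 43 estimated reads, for BTG2 in OVCAR5 replicate 3. Genes at a value of 0 numbered 8 in OVCAR5R replicate 1 and 31 in OVCAR5R replicate 3, against 176 to 230 in the other libraries. The cause of this difference was not tested. OVCAR5 replicate 2 stood apart from the other libraries. It had a correlation of 0.85 to 0.90 with them over all tested genes, and the epithelial markers EPCAM (597, against 11.9 to 31.7 elsewhere) and KRT19 (1341, against 3.09 to 10.7) were far higher in it. The 10 epithelial markers in the table, out of 12 listed, summed to 17758 in this library and to between 2410 and 4832 in the other five. Of the marker lists of other cell types, 2 of 8 fibroblast, 1 of 8 leukocyte, and 0 of 6 endothelial genes were in the table. Of the 2 fibroblast markers, COL1A1 was highest in OVCAR5 replicate 2 (15.2, against 1.29 to 9.03 elsewhere). The other, PDGFRB, was lowest in that library (0.145, against 0.481 to 1.90 elsewhere). The leukocyte marker CD14 was highest in OVCAR5 replicate 2, at 20.2 against 2.02 to 11.9 elsewhere. Among the ovarian lineage markers, PAX8 was between 8.38 and 11.4 in OVCAR5 and between 4.38 and 5.66 in OVCAR5R, and WT1 was near 0 in both, between 0.0290 and 0.0731 in OVCAR5 and between 0.380 and 0.727 in OVCAR5R. MUC16 was not analyzed here. Fold changes whose sign turned, or whose log2 value moved by over 1.5 times, without OVCAR5 replicate 2 are given both ways.

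The DNA to which p53 binds at MDM2 and FAS is shown first, because these response elements define direct targets and were the closest matches to the consensus in the promoter windows of the members. Windows from 250 bases before to 50 bases after each transcription start came from RefSeq (GRCh38.p14). They were searched on both strands for the p53 consensus of 20 bases, which consists of 2 half-sites of 10 bases with no spacer. All members had at least 1 window. A match with at most 2 mismatches was present in 228 of 35116 windows (0.649%). Among the members it was present in 2 of 4 MDM2 windows, which share the same site, and in 1 of 3 FAS windows. The best matches of the other members had 3 to 5 mismatches, and a response element that lies outside these windows was not searched. The stretches below are from the plus strand, and capitals mark the sites.
MDM2, chr12:68808909-68808995: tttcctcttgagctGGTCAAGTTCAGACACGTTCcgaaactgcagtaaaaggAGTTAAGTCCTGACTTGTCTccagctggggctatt
FAS, chr10:88991289-88991348: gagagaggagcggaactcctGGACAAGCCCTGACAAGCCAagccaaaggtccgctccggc
The first MDM2 site had 2 mismatches to the consensus and the second had 3. Both lie within the MDM2 gene and outside the exons of its coding transcripts in GENCODE release 29, just before the start of its p53-responsive second promoter. The FAS site had 2 mismatches, both in its second half-site, and also lies within the gene and outside the exons of coding transcripts. A match of letters does not show that the site was bound in these cells.

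None of the 8 targets differed between OVCAR5R and OVCAR5 in limma's test across all genes (Benjamini-Hochberg adjusted p = 0.459 for GDF15 and from 0.681 to 0.965 for the other seven). Over all genes tested, 14 passed at 0.05 (0.119%), 2 higher (0.0170%) and 12 lower (0.102%) in OVCAR5R. Without adjustment, 1 of 8 targets had a p under 0.05, compared with 1222 of all genes (10.4%). By their means on the log2(value + 1) scale, 4 targets were higher and 4 were lower in OVCAR5R, where 49.2% of all genes were higher. Without OVCAR5 replicate 2, 5 targets were higher and 0 passed the test. The median log2 fold change of the targets was -0.02, compared with -0.01 over all genes. The libraries of the lines overlapped for all 8, whereas they did not overlap for 16.6% of all genes. All fold changes below are on the log2(value + 1) scale, OVCAR5R minus OVCAR5, which understates those of low genes.

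**Figure D1:**
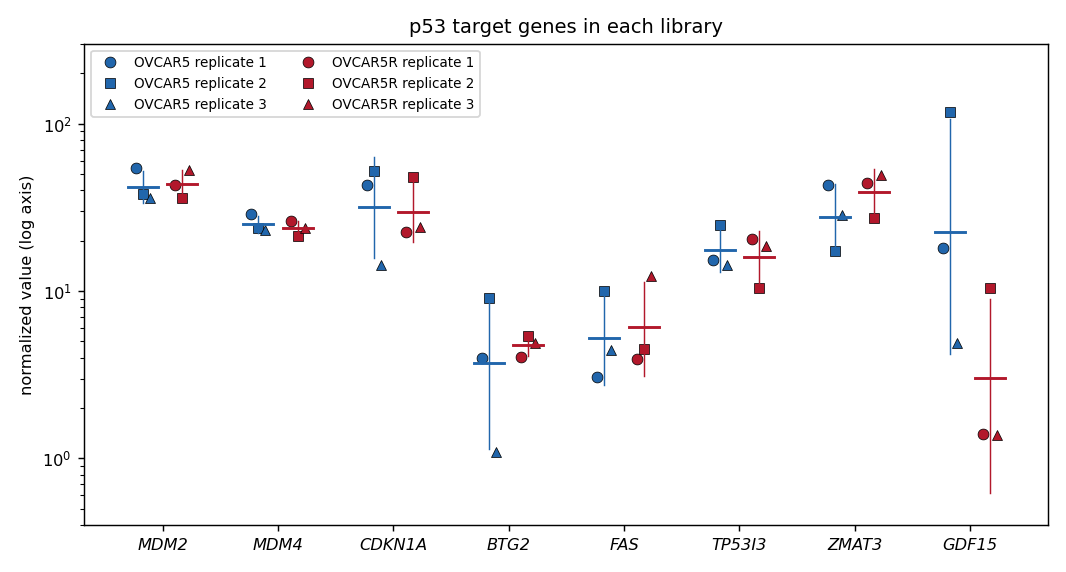
Normalized values (log axis) of 8 p53 target genes in the 3 OVCAR5 (blue) and 3 OVCAR5R (red) libraries. Horizontal lines are means and vertical lines 1 SD, both taken on the log2(value + 1) scale. The lines overlap for every gene, MDM2 and MDM4 vary little, and GDF15 spans 4.87 to 117 in OVCAR5 and 1.38 to 10.5 in OVCAR5R.

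TP73, a p53 relative that can bind the same elements, was low in both lines, with values of 4.70, 11.9, and 3.57 in OVCAR5 and 4.57, 4.20, and 6.54 in OVCAR5R (log2 fold change -0.21, adjusted p = 0.900). OVCAR5 replicate 2 was the high library, and without it the log2 fold change was 0.24. TP63, the other relative, was not analyzed here.

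MDM2, the ubiquitin ligase that degrades p53 and is itself a p53 target, had close means in both lines. Its values were 54.2, 37.9, and 36.1 in OVCAR5 and 43.0, 35.9, and 53.3 in OVCAR5R, or 42.8 ± 9.98 and 44.1 ± 8.73 (SD, n = 3 each). Each line spanned nearly the whole range. The log2 fold change was 0.05 ± 0.25 (SE, adjusted p = 0.965), with a 95% interval from 0.697-fold to 1.53-fold. A 2-fold difference in either direction thus lies outside the interval. Without OVCAR5 replicate 2 the value was -0.03.

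MDM4, which binds p53 and blocks its transactivation, was the least variable of the 8 genes. Its values were 28.8, 23.7, and 23.3 in OVCAR5 and 26.2, 21.3, and 23.8 in OVCAR5R. The ranges overlapped, and the log2 fold change of MDM4 was -0.08 ± 0.21 (SE, adjusted p = 0.921), with an interval from 0.677-fold to 1.32-fold, and -0.12 without OVCAR5 replicate 2. The within-line SD of MDM4 was at percentile 15.6 of all tested genes in OVCAR5 and at percentile 24.0 in OVCAR5R. PPM1D, a phosphatase that turns p53 signaling off and is also a p53 target, had values of 8.01, 7.91, and 5.40 in OVCAR5 and 9.03, 8.80, and 8.16 in OVCAR5R. It did not overlap between the lines, but its log2 fold change of 0.27 did not pass the test (SE 0.26, adjusted p = 0.752).

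CDKN1A, which encodes the CDK inhibitor p21 and mediates G1 arrest by p53, varied more between cultures than between lines. Its values were 43.2, 51.9, and 14.3 in OVCAR5 and 22.7, 47.8, and 24.0 in OVCAR5R. In OVCAR5 only replicate 3 was low, in OVCAR5R only replicate 2 was high, and the OVCAR5R values lay inside the OVCAR5 range. The means were 36.5 ± 19.7 and 31.5 ± 14.1 (SD, n = 3 each), and the log2 fold change was -0.10 ± 0.49 (SE, adjusted p = 0.962). The interval, from 0.423-fold to 2.05-fold, leaves room for differences of about 2-fold. The sign turned when OVCAR5 replicate 2 was left out (0.24), and the value was -0.65 without OVCAR5 replicate 3.

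BTG2, an antiproliferative gene that promotes mRNA deadenylation, was low. Its values were 3.97, 9.12, and 1.09 in OVCAR5 and 4.02, 5.39, and 4.92 in OVCAR5R. All OVCAR5R values lay within the range of OVCAR5, in which replicate 2 was high and replicate 3 low. The SD in OVCAR5 was at percentile 96.0 of all genes, compared with 33.1 in OVCAR5R, a difference that was not tested. For BTG2 the log2 fold change was 0.28 ± 0.54 (SE, adjusted p = 0.892), 0.83 without OVCAR5 replicate 2, and -0.30 without OVCAR5 replicate 3.

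FAS encodes the death receptor that triggers caspase-8 upon binding of FAS ligand. Its values were 3.07, 9.99, and 4.43 in OVCAR5 and 3.90, 4.52, and 12.3 in OVCAR5R. In each line a single library was high, OVCAR5 replicate 2 and OVCAR5R replicate 3, and the remaining values lay between 3.07 and 4.52. Its log2 fold change was 0.19 ± 0.50 (SE, adjusted p = 0.929), 0.60 without OVCAR5 replicate 2, and -0.26 without OVCAR5R replicate 3.

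TP53I3 encodes a quinone oxidoreductase linked to oxidative stress in p53-driven cell death. Its values were 15.3, 25.0, and 14.4 in OVCAR5 and 20.6, 10.5, and 18.7 in OVCAR5R. The highest library was OVCAR5 replicate 2 and the lowest OVCAR5R replicate 2, with the other four between them. For TP53I3 the log2 fold change was -0.14 ± 0.33 (SE, adjusted p = 0.913), and 0.10 without OVCAR5 replicate 2.

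ZMAT3, a zinc finger protein that binds RNA and regulates splicing, had the largest positive log2 fold change of the 8 targets, 0.48 ± 0.37 (SE, adjusted p = 0.681). Its values were 43.3, 17.3, and 28.3 in OVCAR5 and 44.1, 27.2, and 49.3 in OVCAR5R. OVCAR5 replicate 2 was the lowest library here, unlike for CDKN1A, GDF15, TP53I3, and BTG2, and OVCAR5 replicate 1 was as high as OVCAR5R. Without OVCAR5 replicate 2 the log2 fold change was 0.15.

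GDF15, a secreted stress cytokine of the TGF-beta superfamily, had by far the widest range. Its values were 18.2, 117, and 4.87 in OVCAR5 and 1.39, 10.5, and 1.38 in OVCAR5R. The ranges overlapped, since OVCAR5R replicate 2 was above OVCAR5 replicate 3. The means were 46.7 ± 61.2 and 4.43 ± 5.27 (SD, n = 3 each), so that in each line the SD exceeded the mean. The log2 fold change was -2.55 ± 1.06 (SE), with a 95% interval from -5.00 to -0.11 (unadjusted p = 0.0425, adjusted p = 0.459, limma). An exact two-sided permutation test of the 6 libraries gave p = 0.200, where 0.1 is the smallest p that this design allows. The log2 fold change was -1.40 without OVCAR5 replicate 2 (adjusted p = 0.585) and between -3.56 and -1.40 with any one library left out. It stayed negative in all 13 alternatives run, with adjusted p from 0.200 to 0.768. The epithelial markers EPCAM and KRT19 were likewise highest in OVCAR5 replicate 2, unlike WT1, and the part of such markers in the GDF15 values was not tested. GDF15 is also a known target of integrated stress signaling.

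**Figure D2:**
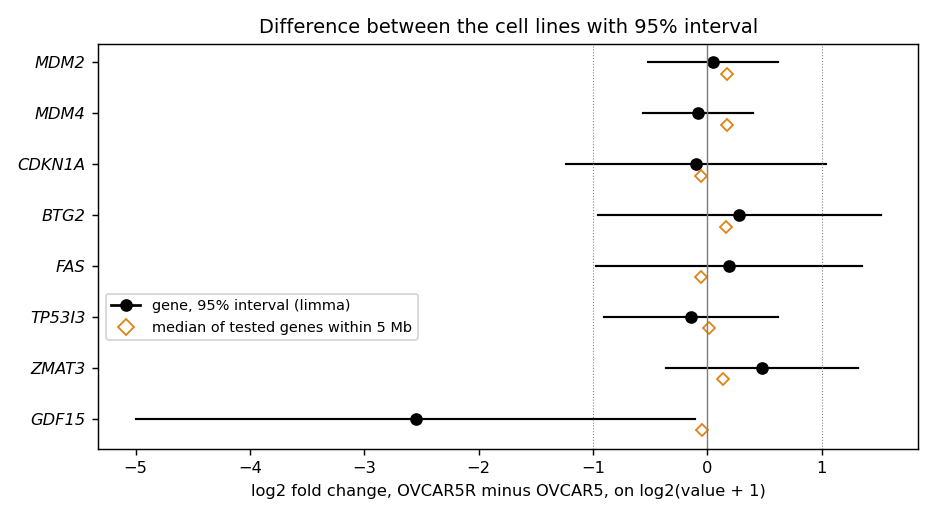
Log2 fold change of each gene, OVCAR5R minus OVCAR5, with its 95% interval from limma (black), and the median of the tested genes that start within 5 Mb of it (orange diamonds). Dotted lines mark a 2-fold difference. Only the GDF15 interval, from -5.00 to -0.11, leaves out 0, before adjustment for the number of genes tested.

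The libraries moved the targets in different directions. OVCAR5 replicate 2 was the highest library for 4 of 8 targets (CDKN1A, GDF15, TP53I3, and BTG2) and for TP73, and it was the highest for 26.9% of all genes. The within-OVCAR5 SD of GDF15, BTG2, and CDKN1A was at percentiles 99.5, 96.0, and 93.6 of all tested genes, and that of MDM2 at 44.3. In OVCAR5R the percentiles were 99.1 for GDF15, 88.9 for CDKN1A, and 56.1 for MDM2. Across the 6 libraries CDKN1A had a Pearson r of 0.83 with BTG2 and 0.73 with GDF15, but 0.02 with MDM2, and GDF15 had an r of -0.80 with ZMAT3. These are descriptions over 6 libraries that share OVCAR5 replicate 2. Without it the 4 values were 0.76, 0.65, 0.22, and -0.43 over 5 libraries. MDM2 had an r of 0.78 with ZMAT3 and 0.70 with MDM4, or 0.90 and 0.70 without OVCAR5 replicate 2. With GDF15, TP53I3, FAS, and BTG2 it had an r between -0.29 and 0.21, or between -0.05 and 0.57 without that library.

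**Figure D3:**
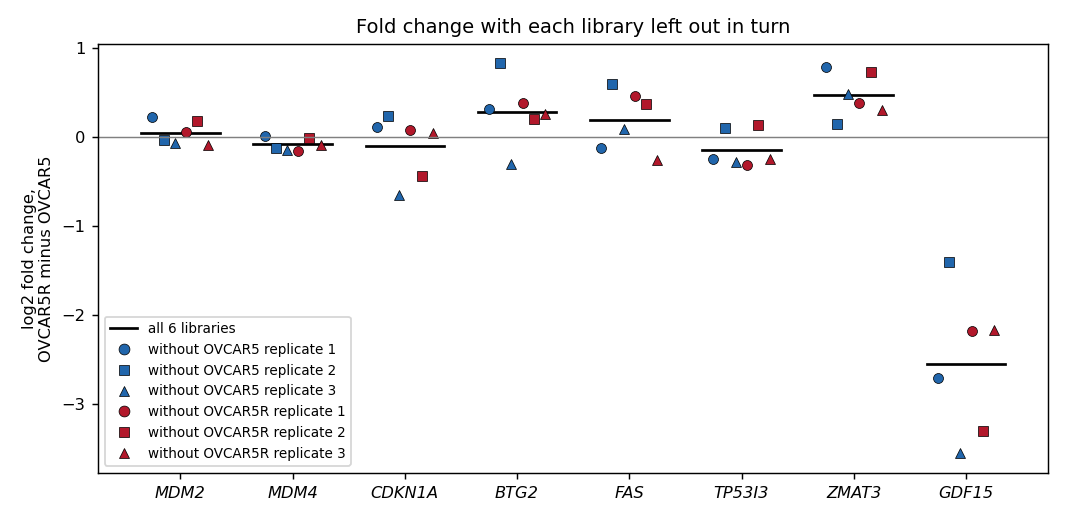
Log2 fold change of 8 targets over all 6 libraries (black line) and with each library left out in turn (symbols, coloured by line and shaped by replicate number). CDKN1A, MDM2, MDM4, BTG2, FAS, and TP53I3 lie on both sides of 0 depending on the library left out, and ZMAT3 and GDF15 keep their sign.

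Levels between genes were compared per kb of the longest annotated transcript, as the mean of the 6 libraries. GDF15 stood first at 21.3 per kb and CDKN1A second at 15.0, but GDF15 was above CDKN1A in only 1 of 6 libraries, OVCAR5 replicate 2. TP53I3 followed at 8.71 per kb, below CDKN1A in 4 of 6 libraries and above ZMAT3 (3.71) in 6 of 6 libraries. ZMAT3 and MDM2 (3.44) were close, with ZMAT3 higher in 5 of 6, and MDM2 was above FAS in 4 of 6. FAS (2.49) and MDM4 (2.43) had close means, although FAS was higher in only 2 of 6. BTG2 was lowest at 1.75, below MDM4 in 5 of 6. Among the per-kb levels of all genes, CDKN1A was at percentile 61.8 and MDM2 at 20.8.

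The 8 targets lie on 7 chromosomes. MDM4 and BTG2 are both on chromosome 1, with starts 1.21 Mb apart, so their surroundings are largely the same genes. The tested genes that start within 5 Mb had a median log2 fold change between -0.06 and 0.17, the lowest around CDKN1A (110 genes) and FAS (39 genes), the highest around MDM2 (33 genes) and MDM4 (58 genes). Around GDF15 on chromosome 19 it was -0.05 over 110 genes. One of these is PGPEP1, itself a p53 target that encodes a pyroglutamyl peptidase. By the outer gene boundaries in GENCODE, it starts 34.1 kb before GDF15. The RefSeq start used for the promoter window of GDF15 lies farther from PGPEP1. The values of PGPEP1 were 47.1, 53.3, and 27.5 in OVCAR5 and 11.4, 16.2, and 11.4 in OVCAR5R. The lines did not overlap, and its log2 fold change was -1.60 ± 0.30 (SE, adjusted p = 0.148), which did not pass the test, and -1.42 without OVCAR5 replicate 2. The 10 tested genes that start within 200 kb of GDF15, PGPEP1 among them, had a median of -0.06, with 4 higher and 6 lower.

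Beyond these genes, 25 tested members of the p53 family and its regulators (kinases, acetylases, ubiquitin ligases, and binding partners) were followed, and 0 passed the test. By mean 11 were higher (44.0%) and 14 lower in OVCAR5R, with a median of -0.06. Over all genes, 49.2% were higher and 0.119% passed. PRMT5, an arginine methyltransferase that modifies p53, was the highest at 0.62 ± 0.24 (SE, adjusted p = 0.441), with values of 186, 173, and 248 in OVCAR5 and 394, 296, and 251 in OVCAR5R. The lines did not overlap, by a narrow margin. SIRT1, a deacetylase of p53, was next at 0.35 (adjusted p = 0.723) but at 0.07 without OVCAR5 replicate 2, and BRD7, a cofactor of p53, was lowest at -0.44 (adjusted p = 0.659). CDKN2A, which encodes the MDM2 inhibitor ARF and the CDK inhibitor p16, did not enter the test. It is named after its values were seen: it was listed at 0 in all OVCAR5 libraries and in OVCAR5R replicate 2, at 2.75 in OVCAR5R replicate 1, and at 0.0186 in OVCAR5R replicate 3. OVCAR5R replicate 1 was also the library with the fewest genes at 0 (8 genes).

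Further p53 targets were taken from 5 lists by function. Of 94 genes listed, 86 were tested, 39 were higher (45.3%) and 47 lower by mean, and 0 passed (limma, adjusted p of 0.05). For this and each list below, the shares of all genes were 49.2% higher by mean and 0.119% passing. Their median log2 fold change was -0.03. Without OVCAR5 replicate 2, 46 were higher by mean and 0 passed. Without adjustment, 3 had a p under 0.05 and were higher (4.14% of all genes did so) and 8 were lower (6.25% of all genes). The libraries did not overlap for 12 that were higher and 6 that were lower, compared with 8.40% and 8.18% of all genes.

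Among the 12 cell cycle targets, 3 were higher (25.0%, compared with 49.2% of all genes) and 9 lower by mean, with a median of -0.47. Without OVCAR5 replicate 2, 2 were higher. TRIM22, an antiviral ubiquitin ligase, was the lowest at -1.95 ± 0.55 (SE, adjusted p = 0.304), with values from 2.10 to 10.1 in OVCAR5 and from 0.0565 to 1.25 in OVCAR5R. CCNG2, an atypical cyclin of arrested cells, was at -1.57 (adjusted p = 0.416), with 29.0, 28.2, and 6.11 in OVCAR5 and 2.85, 7.00, and 6.75 in OVCAR5R, so that OVCAR5 replicate 3 was at the level of OVCAR5R. The highest were GADD45A, a damage-induced inhibitor of CDK1, at 0.41 (adjusted p = 0.548) and SERTAD1 at 0.22 (adjusted p = 0.845). Without OVCAR5 replicate 2 they were at 0.27 and 0.56. None of these 4 passed the test.

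Among 18 cell death targets, 8 were higher and 10 lower, with a median of -0.01. BID, a BH3-only gene, was lowest at -1.24 ± 0.39 (SE, adjusted p = 0.335), with 53.8, 125, and 72.0 in OVCAR5 and 22.6, 30.2, and 51.6 in OVCAR5R and no overlap. PMAIP1, which encodes the BH3-only protein NOXA, was second highest at 0.56 ± 0.23 (SE, adjusted p = 0.457), with 44.4, 28.8, and 30.4 in OVCAR5 and 45.0, 53.8, and 52.8 in OVCAR5R, where the nearest values of the lines almost met. AEN, a nuclease of apoptotic cells, was the highest at 0.59 (adjusted p = 0.540; 0.37 without OVCAR5 replicate 2), and TP53INP1 was at -1.08 (adjusted p = 0.486).

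The 10 DNA repair targets were 7 higher (70.0%, compared with 49.2% of all genes) and 3 lower, with a median of 0.12. The lowest was REV3L, the catalytic subunit of translesion polymerase zeta, at -0.38 (adjusted p = 0.744). POLK, another translesion polymerase, was at -0.24 and RRM2B, the p53-induced ribonucleotide reductase subunit, at 0.25. Neither passed the test (adjusted p = 0.835 and 0.825). REV3L was at -0.71, POLK at -0.54, and RRM2B at -0.01 without OVCAR5 replicate 2.

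Of 16 tested targets of metabolism and redox control, 6 were higher and 10 lower, with a median of -0.07, and 9 were higher without OVCAR5 replicate 2. TIGAR, a bisphosphatase that lowers glycolytic flux, was highest at 0.64 ± 0.22 (SE, adjusted p = 0.388). Its values of 11.0, 14.5, and 13.8 in OVCAR5 lay below the 22.7, 18.7, and 20.9 of OVCAR5R. PGF, a VEGF family ligand, followed at 0.59 (adjusted p = 0.603). LPIN1, a phosphatidate phosphatase, was lowest at -0.86 (adjusted p = 0.449), and SESN2, a relative of SESN1 with the same role, was at -0.64 (adjusted p = 0.633).

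The 30 targets in signaling and other roles were 15 higher and 15 lower, with a median of 0.04. IKBIP was at 0.75 (adjusted p = 0.584) and at 0.24 without OVCAR5 replicate 2, and LIF, a cytokine of the IL-6 family, at -1.43 (adjusted p = 0.379), next to PGPEP1 as the lowest of the list.

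Finally, 20 genes that p53 lowers indirectly, through CDKN1A and the DREAM repressor complex, were compared, since they drive G2 and mitosis. By mean 14 were higher (70.0%, compared with 49.2% of all genes) and 6 lower in OVCAR5R, with a median of 0.30. The test was passed by 0 of them and by 0.119% of all genes. Without OVCAR5 replicate 2, 11 were higher by mean. AURKB (0.53 ± 0.23, SE, adjusted p = 0.486) and TOP2A (0.53 ± 0.37, SE, adjusted p = 0.644), which encode a mitotic kinase and a topoisomerase, were the highest. TOP2A was at 0.15 and AURKB at 0.52 without OVCAR5 replicate 2. CCNA2, the S and G2 phase cyclin, was the lowest at -0.55 ± 0.25 (SE, adjusted p = 0.491). Its values were 70.8, 59.4, and 101 in OVCAR5 and 53.1, 44.0, and 57.3 in OVCAR5R, with no overlap. It was the 1 gene of these 20 without overlap, compared with 16.6% of all genes. CDC25C, the phosphatase that activates CDK1, was at -0.16 (adjusted p = 0.824).

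**Figure D4:**
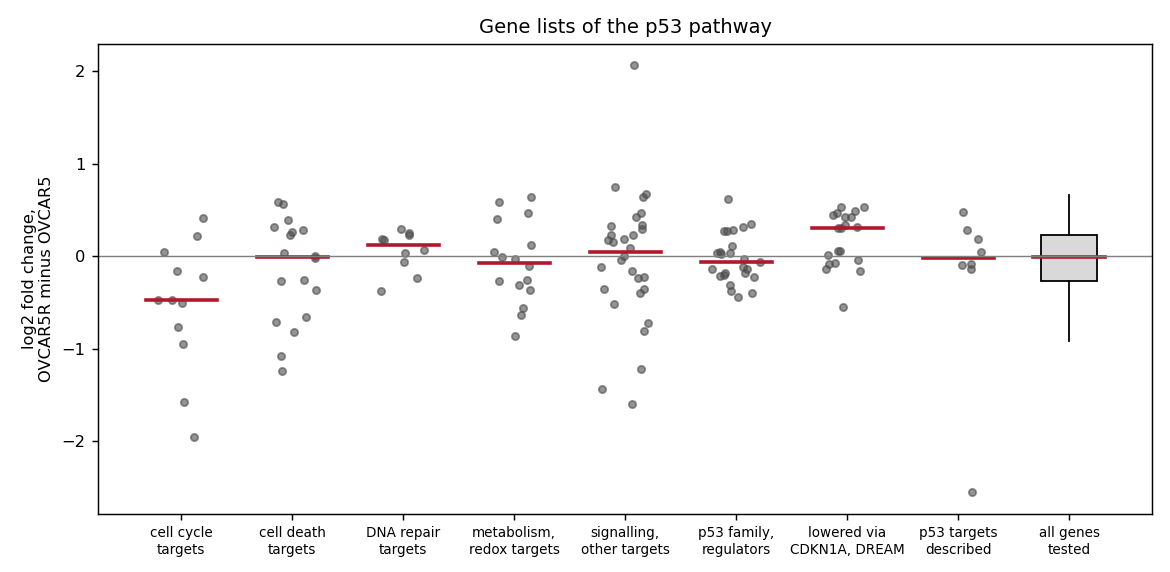
Log2 fold change, OVCAR5R minus OVCAR5, of each tested gene (dots) in 7 lists of the p53 pathway and of the 8 targets, with the median of each list in red. The box at the right shows the quartiles of all 11766 tested genes, with whiskers from the 5th to the 95th percentile (-0.91 to 0.66). No dot passed the test, and the medians run from -0.47 for cell cycle targets to 0.30 for genes lowered through CDKN1A and DREAM.

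The genes whose profile over the 6 libraries was most like that of a target were found by Pearson's r of log2 values among 9749 genes with a mean value of at least 10. For CDKN1A they were TBC1D20 (r = 1.00), FAM214B (r = 0.99), and TOLLIP (r = 0.99), and 21 genes had an r of at least 0.95. For MDM2 they were SAMD8 (r = 0.99), CERS6 (r = 0.99), and TTC17 (r = 0.98), with 18 genes at 0.95 or more. For GDF15 they were GSN, SLC22A18, and YIPF3 (r = 0.99 each), with 82 genes at 0.95 or more, and GSN ran from 59.8 to 183 in OVCAR5 and from 38.2 to 71.4 in OVCAR5R. These are descriptions over 6 libraries. Without OVCAR5 replicate 2 each of these 9 values of r lay between 0.98 and 1.00. That is no separate check, since the 9 genes were picked as the most alike of 9749 in these same libraries. How many genes would reach an r of 0.95 by chance over 6 libraries was not tested.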

How the data were processed

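Total RNA from 3 cultures each of OVCAR5 and OVCAR5R was sequenced. The authors deposited 1 table of a normalized signal on a linear scale, by gene symbol, with 1 column per culture. The supplementary methods state quartile normalization and log transformation before analysis, but the deposited values are not logged. The build hg38 is named in the submitters' processing notes, and the aligner and counter are not given in the sources used here. Within a library, between 87.3 and 90.6% of low values (below 20 steps) were whole multiples (within 0.02) of 1 estimated read, so these are scaled estimated reads, not counts, and no count test was used. Depth limits low genes, and 3 libraries per line limit the rest. The 12309 rows held 12308 different ones.

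Values were analyzed as log2(value + 1) by limma 3.58.1 in R 4.3.3 (lmFit, eBayes with trend), without covariates, for genes that reached a value of 1 in 3 or more libraries, with Benjamini-Hochberg adjustment at 0.05 over all genes tested. The members and lists were chosen with earlier results of these data known. Named were all members, the p53 family, the 2 highest and 2 lowest tested genes of each list and any with an adjusted p under 0.05, and the 3 genes most alike to CDKN1A, MDM2, and GDF15. Some genes that this rule picks are not reported here. In simulated data of the 11766 genes with a log2 change of 2 in 200, the test called 168 of them and 9 unchanged genes. With the median spread given to every gene, it called 200 and 21 unchanged genes. The noise was drawn as normal, and changed genes had a mean log2 value above 3. FAS and BTG2 lie below that level, so these shares do not cover them. The shares are over 200 drawn genes and give no rate for a single gene of wide spread. The within-line SD of GDF15 was at percentiles 99.5 in OVCAR5 and 99.1 in OVCAR5R of all tested genes. Positions and transcript lengths came from GENCODE release 29 (GRCh38), which held 12233 of the symbols. Alternatives were quantile normalization, median centring, a pseudocount of 0.1, no filter, a value of at least 10 in 3 libraries, limma without trend, a block on the replicate number, the removal of each library in turn, and an exact permutation test. Plots used matplotlib 3.10.9.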

Additional observations from a re-analysis of the deposited data

How the results depend on the processing

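No p53 target passed the test in any alternative. Quantile normalization, median centring, a pseudocount of 0.1, the removal of the filter, and limma without trend turned no direction among the named genes. Of the 8 targets, 4 were higher by mean with all libraries, 2 with a value of at least 10 in 3 libraries, where FAS and BTG2 were not tested, and between 2 and 5 with a library left out. Over all genes, 14 were called (2 higher, 12 lower), between 0 and 29 with a library left out (0 to 8 higher, 0 to 21 lower), 29 without OVCAR5 replicate 2 and 0 without OVCAR5R replicate 3. With the replicate number as a block, 5 were called, 1 higher and 4 lower. Over all tested genes, libraries of the same number had correlations of deviations of 0.00, 0.18, and -0.12. For single targets the block changed the SE of the log2 fold change. It fell from 1.06 to 0.44 for GDF15 (adjusted p = 0.237, limma), from 0.49 to 0.33 for CDKN1A, and from 0.37 to 0.24 for ZMAT3, and rose from 0.33 to 0.37 for TP53I3. The labels do not say whether the numbers pair the cultures.

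With a library left out, the log2 fold change ran from -0.65 to 0.24 for CDKN1A, -0.09 to 0.23 for MDM2, -0.15 to 0.01 for MDM4, -0.31 to 0.14 for TP53I3, -0.26 to 0.60 for FAS, -0.30 to 0.83 for BTG2, -0.51 to 0.24 for TP73, -0.01 to 0.56 for SERTAD1, -0.54 to 0.04 for POLK, and -0.01 to 0.55 for RRM2B, so each changed sign. The values rest on 3 libraries per line, and the cause of these turns was not tested.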
